A study of Mus musculus with 168 samples.

Results

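The response to spinal muscular atrophy (SMA) at postnatal day 10 was compared between facial and vagus motor neurons. For each gene the difference between SMA and control mice in facial neurons was set against the same difference in vagus neurons, an interaction of genotype and population, with 1 library per mouse and population. The comparison used 17 of the 168 samples of the series, chosen by their group labels: 4 facial control, 4 facial SMA, 4 vagus control and 5 vagus SMA libraries. The filter on low values and the spread came from a joint fit of 52 facial and vagus libraries of 29 mice at all ages. The 4 control mice and 4 of the 5 SMA mice gave both libraries, and SMA mouse 250 gave a vagus library only. The SMA animals were of the delta7 line, which lacks mouse Smn (Smn-/-) and carries human SMN2 (SMN2+/+) together with the SMN∆7 transgene (SMN∆7+/+). Controls were littermates with intact Smn (Smn+/+), and they too were SMN2+/+ and SMN∆7+/+, so both groups held the human transgenes. Smn was missing from every tissue of the SMA mice, not from motor neurons alone. About 150 cells per tube were cut by laser from quickly stained frozen sections and sequenced from polyA RNA with Smart-seq2, without a genetic marker for the neurons. Values are RPKM, that is, reads per length of transcript and per sequenced read of the library.

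SMA is caused by too little SMN, a protein that assembles the small nuclear ribonucleoproteins (snRNPs) used in splicing, and motor neurons are lost first. Facial motor neurons are branchial: they drive the muscles of the face. Many vagus motor neurons are visceral: they project to ganglia that serve the heart, lungs and gut, although the label does not say which of the vagal nuclei was cut. The tumour suppressor p53 (gene Trp53) is a transcription factor kept low by Mdm2. When stabilised, it raises genes that stop the cell cycle, repair DNA or open the way to cell death.

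Markers of cholinergic neurons were present in both populations. The cholinergic enzyme gene Chat averaged 29.4 ± 4.74 RPKM in facial controls and 29.1 ± 8.02 in vagus controls (SD, n = 4 each). The other 3 of the 4 cholinergic motor neuron markers tested were lower in vagus controls, at day 10 and at days 2 and 5. Slc5a7, the choline transporter, averaged 118 ± 28.8 in facial and 58.1 ± 6.41 in vagus controls at day 10, Isl1 117 ± 18.9 and 12.7 ± 6.09, and Prph 1344 ± 171 and 914 ± 193. Hoxb5, which marks the caudal hindbrain, averaged 0.00992 ± 0.0198 in facial and 120.04 ± 43.4 in vagus controls. Of the somatic motor neuron factors, Mnx1 was 0 in all 4 vagus and all 4 facial controls, so it does not part the populations. Lhx4 averaged 0.0364 ± 0.049 in vagus controls and ran from 6.23 to 12.03 in facial controls. Genes of noradrenergic neurons were high in the vagus. Th, which makes the precursor of dopamine and noradrenaline, averaged 65.8 ± 20.3 in vagus controls and was 0 in all 4 facial controls, and Dbh, the noradrenaline enzyme, averaged 30.2 ± 25.1 against 0.277 ± 0.525. The summed level of the 8 noradrenergic and serotonergic markers ran from 246 to 287 in vagus controls, from 217 to 414 in vagus SMA, from 5.25 to 8.68 in facial controls and from 9.90 to 20.48 in facial SMA. No gene of that list passed the interaction test, where 0.309% of all genes were higher and 0.0315% lower. The part of noradrenergic RNA in the comparison was not tested. The sum of 6 glutamatergic and inhibitory neuron markers ran from 6.35 to 43.1 in facial and from 36.3 to 135 in vagus controls. That of 11 oligodendrocyte markers ran the other way, from 264 to 316 in facial and from 45.8 to 106 in vagus controls. Their part in the comparison was not tested either.

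Depth, estimated from the steps between low values, ran from 2.16 M to 10.8 M reads over the 17 libraries, and from 2.91 M to 3.71 M in facial SMA. Between 14588 and 18419 genes were above 0 in a library. Smn1, the deleted gene, followed every label. It stood at 40.8, 49.9, 37.4 and 21.004 RPKM in facial controls (mice 247, 252, 253 and 254), at 14.96, 22.1, 38.1 and 19.6 in vagus controls, and at 0 in every SMA library except that of vagus mouse 250 (1.13). The difference was -5.18 in facial and -4.33 in vagus neurons on the log2(RPKM + 1) scale, which all differences below share, and the interaction was -0.85 ± 0.61 (SE, adjusted p = 0.867 with limma). That scale understates changes in genes of low level.

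In facial neurons 139 genes rose in SMA (0.729% of 19071 tested) and 14 fell (0.0734%), at an adjusted p below 0.05. In vagus neurons 3 genes changed in all (0.0157%): Smn1 and Gm25008 fell and Nudt8 rose, while 508 genes were higher (2.66%) and 387 lower (2.03%) at an unadjusted p below 0.05. The call of Gm25008 was lost without mouse 196, 247, 253, 254 or 258 (adjusted p up to 0.343), with a pseudocount of 0.1 and with the day 10 groups alone. The difference between the responses passed for 65 genes. The facial response was the higher in 59 of them (0.309%) and the lower in 6 (0.0315%). With the day 10 groups fitted alone 36 genes passed, 28 of them among the 65. The interaction count varied with the mouse left out: it was 36 without mouse 247, 40 without 258, 41 without 254 and 71 without 196. The facial count fell to 100 without mouse 258, and the vagus count was 1 without mouse 258, 5 without 252, 6 without 250 and 7 without 199 or 249.

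**Figure D1:**
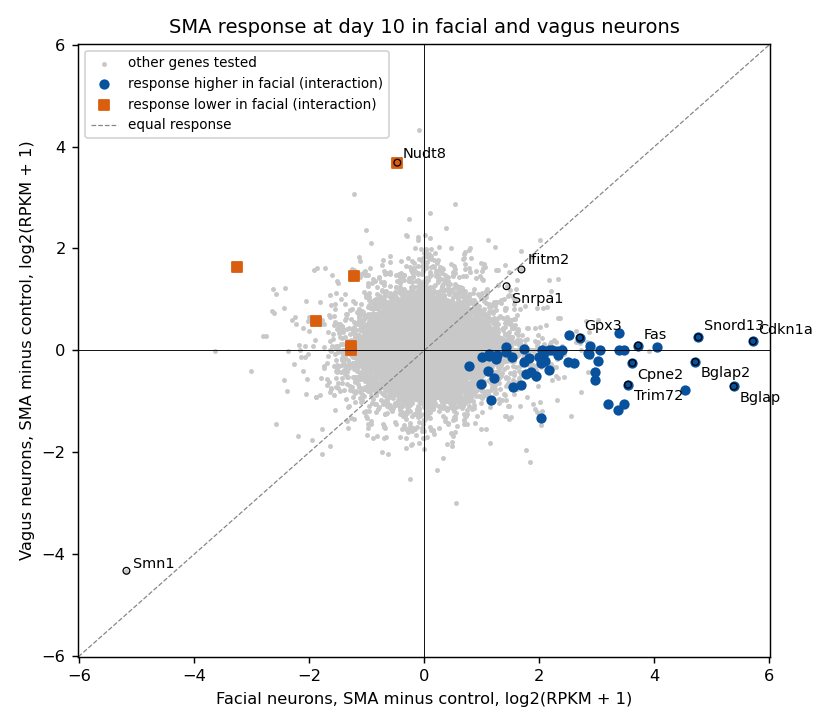
SMA minus control at day 10 in facial (horizontal) and vagus neurons (vertical), both as log2(RPKM + 1), for all 19071 genes tested; blue circles are the 59 genes whose response was higher in facial neurons, orange squares the 6 whose response was lower, and the dashed line marks equal responses. Of the 59 blue points, 42 lie below the horizontal axis, 10 above it and 7 on it. The interaction, which chose these genes, uses the vagus values too. Smn1, Snrpa1 and Ifitm2, with interactions of -0.85, 0.17 and 0.10, lie near the dashed line.

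The 139 genes that rose in facial neurons had no common direction in the vagus. Their median difference was 1.83 in facial neurons, which chose them, and 0 in vagus neurons, against 0.0061 in the vagus for all genes tested. In the vagus 52 were above 0, 67 below and 20 at exactly 0, because every vagus library listed them at 0. At an unadjusted p below 0.05, 6 of the 139 were higher in vagus SMA and 1 was lower, shares of 4.32% and 0.719%. The 6 were Snrpa1, Ifitm2, Irf2bp1, Rgs12, C1qtnf1 and 1500009L16Rik, named after their values were seen. The interaction itself, which shares the facial libraries with that contrast, passed for 56 of the 139. For the other 83 the median interaction was 1.496, and a difference between the populations was not shown. Of the 139, 33 passed the filter on low values only through the facial SMA libraries, as did 17 of the 59, so these had to be higher there. In bulk samples such as these, fewer cells of a kind and less RNA per cell cannot be told apart.

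Targets of p53 were among the genes with a higher facial response. Of 61 tested members of 3 lists of p53 targets, 12 had a higher facial response by the interaction test, which 0.309% of all genes had, and none had a lower one. In facial neurons 21 of the 61 rose, as 0.729% of all genes did, and none fell. In vagus neurons none of the 61 passed the test in either direction, as 0.0157% of all genes did. Their median difference was 0.91 in facial neurons and 0.02 in vagus neurons, against 0.0016 and 0.0061 for all genes tested. The median interaction was 0.76. The lists were chosen with earlier results of these data known, so these counts describe the members and do not test for an excess of p53 targets.

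Among the targets that act in the cell cycle and in DNA repair, 6 of 24 had a higher facial response (0.309% of all genes): Cdkn1a, Gtse1, Ccng1, Plk2, Mgmt and Fam212b. Cdkn1a encodes p21, the inhibitor of cyclin-dependent kinases, and lies at chr17:29090976-29100727 on the plus strand (GRCm38). It stood at 10.7, 1.12, 8.34 and 7.27 RPKM in facial controls and at 370.5, 434.5, 227 and 385 in facial SMA (mice 196, 199, 249 and 258). In the vagus it stood at 45.6, 16.4, 42.5 and 55.6 in controls and at 40.3, 61.1, 28.6, 54.3 and 32.2 in SMA (mice 196, 199, 249, 250 and 258). The facial groups were far apart, and the vagus groups overlapped almost wholly. The mean of Cdkn1a was 51.7-fold higher in facial SMA and 1.08-fold higher in vagus SMA, and the interaction was 5.53 ± 0.71 (SE, adjusted p = 1.31e-06). The same contrast taken within mice gave 5.62, with p = 0.0286 by an exact two-sided permutation of the 8 mice, the smallest that 70 splits allow. Cdkn1a was named for its interaction in these same libraries, so that p-value is not separate support.

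Ccng1, cyclin G1, was different in that both populations began from the same level. Facial controls stood at 25.9, 22.3, 12.6 and 20.6 RPKM and vagus controls at 28.5, 25.03, 17.2 and 14.2. Facial SMA reached 96.5, 74.1, 60.8 and 67.2, above every control, while vagus SMA ran from 8.69 to 27.9 within or below the range of its controls. The interaction was 2.27 ± 0.35 (adjusted p = 9.50e-05). Plk2, a kinase of the polo family, went from 6.88 ± 4.27 to 34.3 ± 3.68 in facial neurons (SD, n = 4 each) and from 17.2 ± 4.94 to 16.3 ± 4.66 in vagus neurons (n = 4 and 5), with an interaction of 2.42 ± 0.45 (adjusted p = 0.00196). Gtse1, which binds p53 and restrains it, was at 0.697 ± 1.32 in facial controls, where mouse 252 held 2.67 and mice 247 and 253 held 0, and at 7.15 ± 1.14 in facial SMA. Its vagus means were 0.0178 and 0.284, under the level that 3 reads give in the shallowest library. Mgmt, a repair enzyme for alkylated DNA, and Fam212b passed with adjusted p of 0.0388 and 0.0303. Mgmt stood at 9.72, 0, 0 and 0.526 in facial controls and at 17.2, 24.3, 13.6 and 15.8 in facial SMA. Its vagus controls stood at 2.88, 9.38, 0 and 0, and its vagus SMA libraries ran from 0 to 1.32. The calls of Gtse1, Fam212b and Mgmt were lost in many fits that left out 1 mouse, whether a control or an SMA mouse. Gtse1 was lost without mouse 199, 247, 249, 253 or 254 (adjusted p up to 0.0962). Fam212b was lost without 199, 249, 253, 254 or 258 (up to 0.185), and Mgmt without any mouse but 247 or 249 (up to 0.300). A further 5 of this list, Btg2, Polk, Psrc1, Ptprv and Zmat3, rose in facial neurons without passing the interaction test. Btg2, Zmat3 and Ptprv lost that call in 7, 6 and 2 of the 9 fits that left out 1 mouse.

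Sequence near the start of these genes was searched for the p53 response element in its full form of 20 bases with no gap inside it, read on both strands. RefSeq promoters of 300 bases (GRCm38.p6, 250 before the start and 50 after) were matched for 45 of the 59 genes with a higher facial response. With at most 1 mismatch, 3 of the 45 held such an element (6.67%), against 0.107% of 27025 promoters. With at most 2 mismatches there were 4 (8.89%), against 0.940%. The matched stretches are shown because they belong to 4 of the p53-list genes described here, and capitals mark the matched 20 bases.
Cdkn1a (chr17:29090888-29090987, plus strand, 1 mismatch): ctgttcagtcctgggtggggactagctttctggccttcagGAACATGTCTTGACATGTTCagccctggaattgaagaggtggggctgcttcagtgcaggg
Ccng1 (chr11:40755422-40755521, minus strand, 1 mismatch): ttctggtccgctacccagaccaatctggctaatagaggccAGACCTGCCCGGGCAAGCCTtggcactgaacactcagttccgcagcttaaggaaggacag
Gtse1 (chr15:85859905-85859995, plus strand, 1 mismatch): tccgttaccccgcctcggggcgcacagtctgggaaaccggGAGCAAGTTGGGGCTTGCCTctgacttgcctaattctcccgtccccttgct
Trp73 (chr4:154097180-154097279, minus strand, 2 mismatches): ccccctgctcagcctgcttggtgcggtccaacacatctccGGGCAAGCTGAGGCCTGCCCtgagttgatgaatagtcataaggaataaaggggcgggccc
A match describes these letters only, and elements outside this window were not searched.

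Among the targets that promote cell death, 5 of 20 had a higher facial response (0.309% of all genes): Fas, Pmaip1, Tnfrsf10b, Eda2r and Lrdd. Fas, a death receptor at chr19:34290666-34327772, stood at 0.914, 1.15, 0 and 0.435 RPKM in facial controls and at 14.3, 23.3, 15.01 and 28.7 in facial SMA. All 4 vagus controls were at 0, and of the vagus SMA libraries only mice 250 and 258 were above 0, at 0.0622 and 0.311. The interaction was 3.62 ± 0.54 (adjusted p = 3.23e-05), but with a pseudocount of 0.1 it did not pass (adjusted p = 0.189 with limma). Pmaip1, which encodes the BH3-only protein Noxa, went from 0.232 ± 0.139 to 9.32 ± 3.00 in facial neurons and stood at 0.284 ± 0.510 and 0.0699 ± 0.156 in the vagus (adjusted p = 7.31e-07). Tnfrsf10b, the mouse receptor for the death ligand TRAIL, was at 0 in all 13 other libraries and at 4.76, 3.03, 2.73 and 4.42 in facial SMA, at least 18.8-fold above the 3-read level of facial controls.

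Lrdd (Pidd1), which builds the PIDDosome that activates caspase-2, stood between 18.4 and 19.6 in the 4 facial SMA libraries and between 0.936 and 2.18 in their controls. In the vagus it was uneven in both groups, from 0 to 4.11 in controls and from 0 to 4.71 in SMA. Eda2r, a receptor of the TNF family, went from 0 in all facial controls to 1.33 ± 0.300 in facial SMA. In vagus controls it stood at 0.0496, 2.37, 0 and 0.489 (mice 247, 252, 253 and 254). Vagus SMA was at 0 except in mouse 196 (0.253). Vagus control mouse 252 was thus above every facial SMA library. Lrdd and Eda2r passed with adjusted p of 0.0366 and 0.0374, and lost the call in 7 and 6 of the 9 fits that left out 1 mouse (adjusted p up to 0.181 and 0.230): Lrdd without any mouse but 199 or 253, and Eda2r without 199, 249, 250, 252, 254 or 258. Perp, a membrane protein of the same list, rose in facial neurons from 7.41 ± 1.90 to 37.5 ± 8.19 and stood at 7.18 ± 2.68 and 6.23 ± 3.53 in the vagus, but its interaction of 2.48 did not pass (adjusted p = 0.146), and the facial call of Perp was lost without mouse 199, 247, 249, 253, 254 or 258 (up to 0.0857). Bax, the effector of mitochondrial death, averaged 58.9 and 79.6 in facial neurons and 25.6 and 59.0 in vagus neurons, and neither difference passed (adjusted p = 0.972 and 0.974).

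Among 14 regulators of p53 tested, Trp73, a relative of p53, was the one member with a higher facial response (0.309% of all genes): 0 in all facial and vagus controls, 1.96, 0.614, 1.12 and 3.92 in facial SMA, and 0.248 in vagus mouse 250 alone. Trp73 passed the filter on low values only through the facial SMA libraries, so it had to be higher there, and it was tested in 6 of the 9 fits that left out 1 mouse. Its interaction of 1.35 (adjusted p = 0.0298) was lost without any 1 of the 4 control mice (up to 0.0901). Trp53 itself averaged 7.39 ± 2.70 in facial controls and 24.9 ± 7.98 in facial SMA, with no overlap between the groups, and 6.56 ± 2.94 and 7.74 ± 4.69 in the vagus. The facial difference in Trp53 did not pass (1.64, adjusted p = 0.0879), nor did its interaction (1.53, adjusted p = 0.532). Mdm2, which p53 induces and which degrades it, averaged 13.2 and 33.4 in facial and 9.37 and 10.9 in vagus neurons, and its interaction of 1.09 did not pass (adjusted p = 0.664).

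Of 17 other p53 targets, Trim72, a membrane repair protein, was the one with a higher facial response (0.309% of all genes). It stood at 0.410, 0.811, 1.07 and 0.773 RPKM in facial controls and at 20.4, 18.1, 20.3 and 18.6 in facial SMA, while no vagus library exceeded 2.82. Its interaction was 4.22 ± 0.42 (adjusted p = 1.98e-09), and the mean was 25.3-fold higher in facial SMA. Dcxr, a carbonyl reductase, rose in facial neurons from 15.6 ± 1.93 to 255 ± 78.1 and averaged 15.03 ± 13.8 and 11.6 ± 2.53 in the vagus. Its interaction of 3.92 did not pass (adjusted p = 0.188), and without mouse 258 its facial difference did not either (adjusted p = 0.0542). Cox6b2 and Tap1 also rose in facial neurons, and their interactions had adjusted p of 0.0695 and 0.0507.

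**Figure D2:**
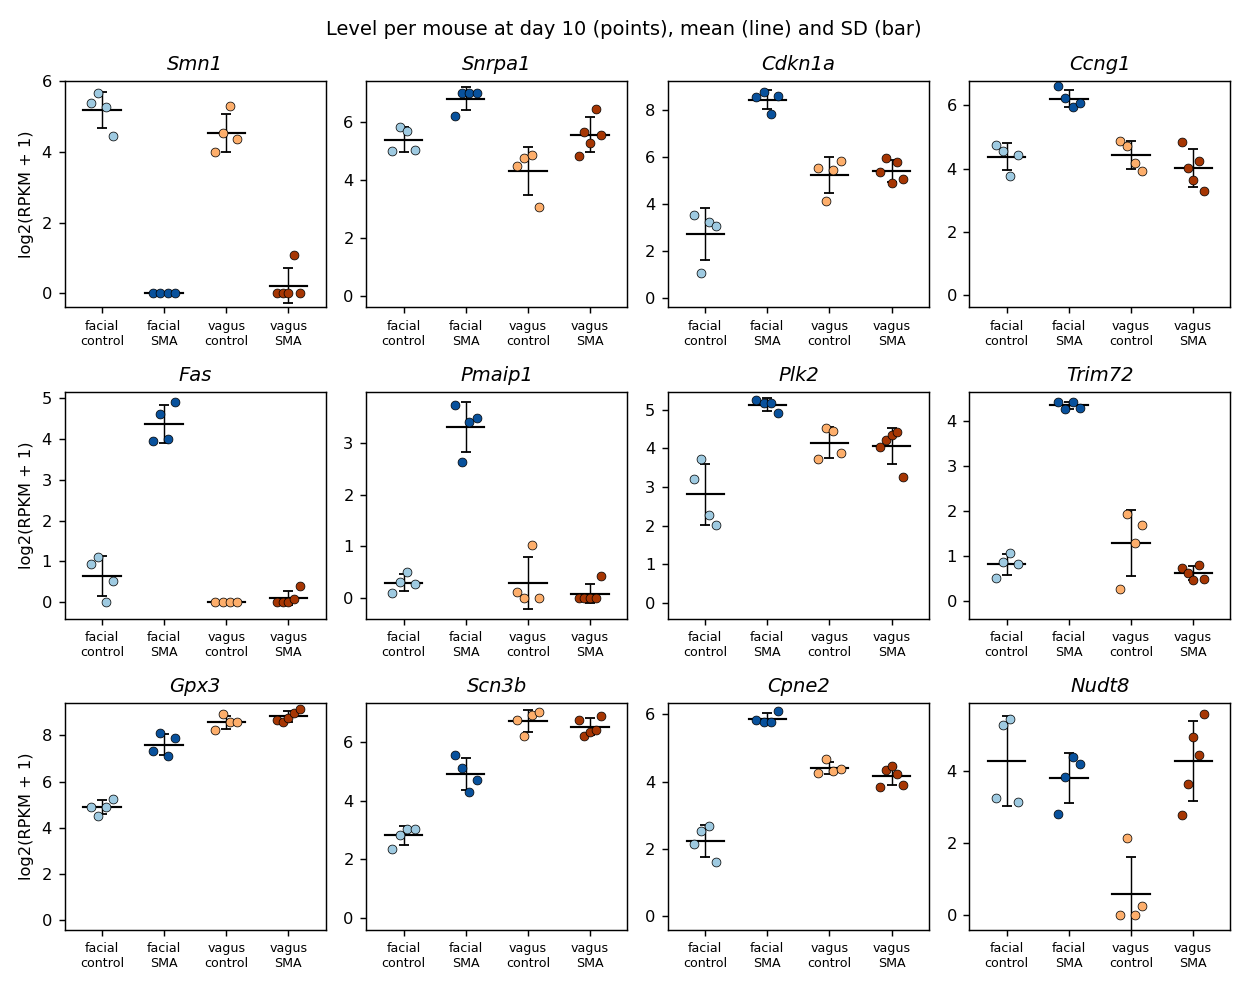
Level of 12 genes in each mouse at day 10 as log2(RPKM + 1), by population and genotype (4 mice per group, 5 in vagus SMA); points are mice, lines are means of the log2 values and bars are SD. Smn1 is lost in both populations, while Cdkn1a, Ccng1, Fas, Pmaip1, Plk2 and Trim72 separate the facial groups alone.

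Beyond the 3 lists of p53 targets, 47 genes, Trp73 among them, had a higher facial response. The largest interaction belonged to Bglap, with 6.09 ± 0.73 (adjusted p = 2.11e-07), and the smallest adjusted p to its neighbour Bglap2 (4.94 ± 0.38, 1.04e-12). Both encode osteocalcin, a hormone of bone, and are near-identical copies on chromosome 3, so how reads were divided between them is uncertain. Bglap was at 0 in all facial controls and at 12.5, 41.2, 83.9 and 61.5 RPKM in facial SMA, at least 28.3-fold above the 3-read level. In the vagus it was at 0 in 8 of 9 libraries and at 6.12 in control mouse 252.

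Several others were near 0 outside facial SMA. Gjb5, a connexin, was at 0 in all 13 other libraries and at 4.59, 12.96, 11.99 and 10.66 in facial SMA. Ddit4l, an inhibitor of mTOR signalling, averaged 10.96 ± 8.11 in facial SMA and was at 0 in facial controls, and its vagus means were 0.0746 and 0.462. Ly6d was uneven: it stood at 0.497 in mouse 196 and at 49.2, 13.3 and 66.8 in mice 199, 249 and 258. Its interaction was lost with the day 10 groups alone (adjusted p = 0.154 with limma). Spc25, a kinetochore protein, rose from 1.64 ± 1.35 to 26.4 ± 10.7 in facial neurons and stood at 2.02 ± 2.51 and 0.0812 ± 0.182 in the vagus. With a pseudocount of 0.1 its facial call and its interaction were lost (adjusted p = 0.161 and 0.173 with limma). The short RNA genes Snord13 and Gm24517 also passed, but 3 reads there already give 10.44 and 10.15 RPKM in the shallowest facial control, and the material was polyA RNA. Snord13 lost its call without mouse 196, 199, 247, 249, 253 or 254 (up to 0.188). Rab42, a small GTPase, lost its call without any mouse but 196 or 258 (up to 0.181).

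In 30 of the 59 genes both vagus means were below 1 RPKM, as they were in 25.1% of all genes tested, so for these a missing vagus response was read from a very low level. The other 29 were expressed in the vagus, 16 of them at 10 RPKM or more in controls. For these the starting levels can be compared.

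Whether vagus controls already started high was asked in the controls of days 2 and 5. Their libraries are not in the day 10 groups, but share the filter and the variance estimate of the joint fit. There 1656 genes were higher in vagus than in facial controls (8.68% of those tested) and 1597 lower (8.37%). Of the 139 genes that rose in facial neurons, 18 were higher in the vagus (12.9%) and 8 lower (5.76%). Of the 59 with a higher facial response, 9 were higher (15.3%) and 1, Rprm, was lower (1.69%). In both sets the share higher in the vagus was somewhat above that of all genes, and the share lower was below it. These differences in share were not tested, and most genes of either set passed in neither direction. Of the 139, 33 passed the filter on low values only through facial SMA at day 10, as did 17 of the 59. For these a difference between the controls was hard to detect. Of the 61 p53 targets tested, 7 were higher in the vagus and 4 lower, with a median difference of -0.08. The 9 genes were Cdkn1a, Gpx3, Scn3b, Cpne2, Crabp2, Ctxn1, Ddit4l, Dkkl1 and 2010001M06Rik. A call at days 2 and 5 does not give the level at day 10. There Rprm ran from 16.5 to 29.2 RPKM in vagus controls and from 3.19 to 12.9 in facial controls. Ddit4l ran only from 0 to 0.226 in vagus controls at day 10.

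For some of these the vagus control level was at or above even the facial SMA level: this was so for 8 of the 59 means and 13 of the 139, against 9430 of all 19071 genes tested. Gpx3, an extracellular glutathione peroxidase (chr11:54902453-54910377), stood at 29.0, 21.8, 29.3 and 36.5 RPKM in facial controls and at 157, 273, 137 and 232 in facial SMA. Vagus controls stood at 297, 475, 380.1 and 375 and vagus SMA between 377 and 566. Every vagus library was thus above every facial one. The interaction was 2.46 ± 0.40 (adjusted p = 1.64e-04), and the vagus controls of days 2 and 5 were higher than facial ones by 2.83 (adjusted p = 3.44e-15).

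Scn3b, a subunit of voltage-gated sodium channels, stood at 4.14, 6.14, 7.18 and 7.17 in facial controls and at 45.8, 33.5, 18.8 and 25.1 in facial SMA, against 107 ± 24.6 in vagus controls and 92.3 ± 19.0 in vagus SMA (interaction 2.30 ± 0.31, adjusted p = 5.12e-06). Crabp2, which carries retinoic acid, averaged 6.48 ± 7.25 and 33.6 ± 16.8 in facial neurons and 296 ± 36.0 and 308 ± 143 in vagus neurons, and its facial groups overlapped. Dkkl1 averaged 3.47 ± 2.80 and 16.0 ± 2.10 against 64.1 ± 17.1 and 50.7 ± 21.5. The interaction calls of Crabp2 and Dkkl1 (adjusted p = 0.0465 and 0.0402) held in 3 and 2 of the 9 fits that left out 1 mouse. In each of these 4 genes the mean of facial SMA lay between the facial and the vagus controls.

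Cdkn1a and Cpne2 differed from them. Cpne2, a calcium-dependent phospholipid binding protein, stood at 3.40, 4.84, 5.41 and 2.07 in facial controls and at 55.5, 53.8, 53.1 and 67.6 in facial SMA. Vagus controls held 20.4 ± 2.77 and vagus SMA 17.1 ± 3.34, so the facial level passed from below to above the vagus. Cdkn1a did the same: its vagus controls were 5.84-fold above facial controls, while facial SMA was above both. At days 2 and 5 the control difference was 2.39 for Cdkn1a (adjusted p = 2.52e-06) and 0.94 for Cpne2 (adjusted p = 6.44e-04).

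**Figure D3:**
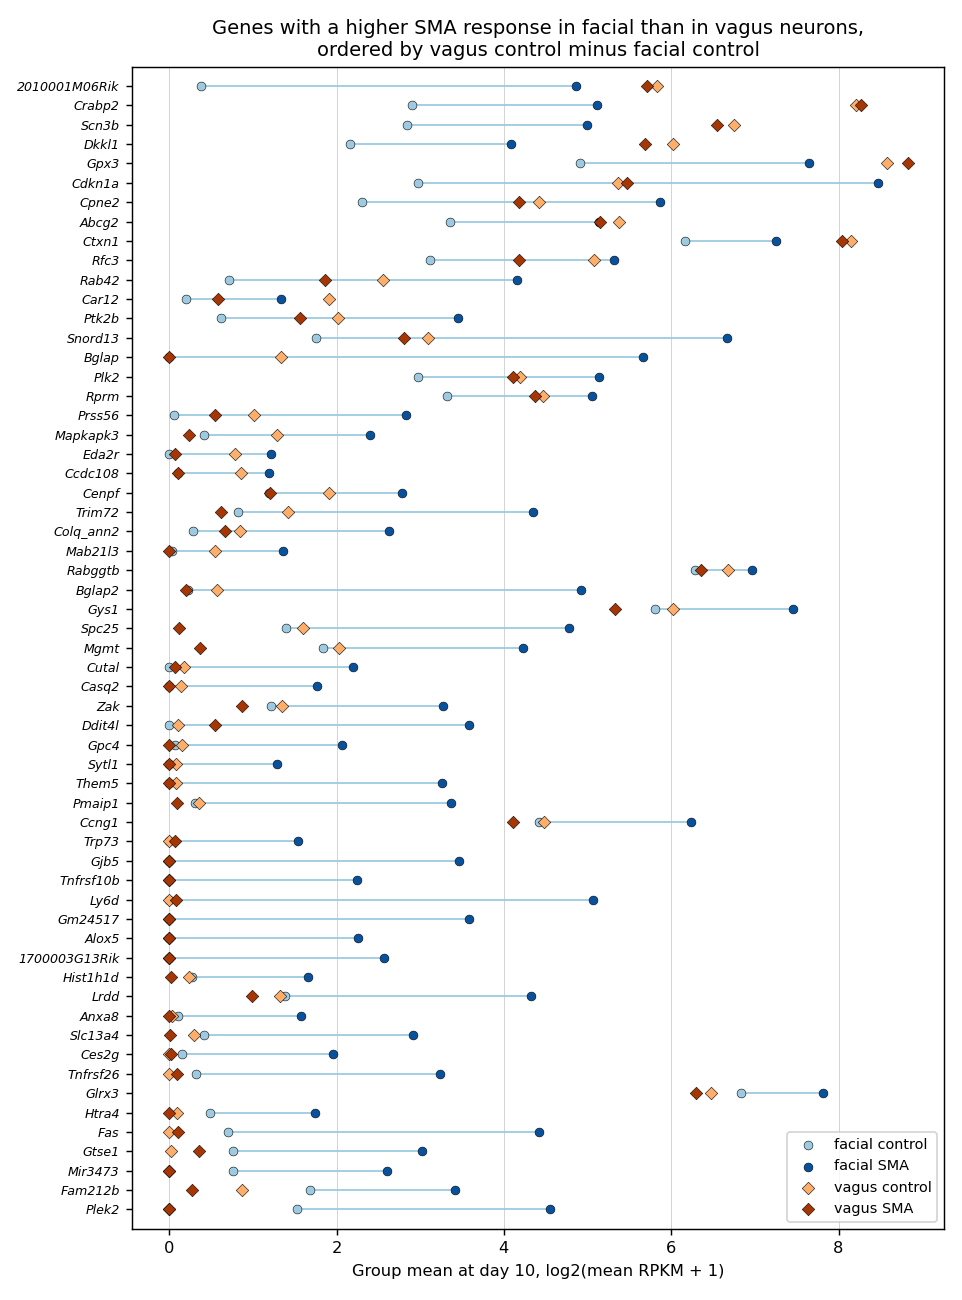
Group means at day 10, as log2(mean RPKM + 1), of the 59 genes with a higher facial response, ordered by vagus control minus facial control; circles are facial and diamonds vagus, light symbols are controls and dark symbols SMA, and lines join the facial groups. At the top the vagus controls of Crabp2, Scn3b, Dkkl1 and Gpx3 lie to the right of facial SMA, and towards the bottom both vagus groups lie at or near 0.

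In facial controls several of these genes were higher at younger ages. Scn3b averaged 47.1 ± 11.5 RPKM at day 2 (n = 5), 26.3 ± 6.02 at day 5 (n = 4) and 6.16 ± 1.43 at day 10, whereas vagus controls held 109, 110.03 and 107. Crabp2 averaged 232, 76.2 and 6.48 in facial controls at the 3 ages, and 251, 346 and 296 in vagus controls. Abcg2, a membrane efflux transporter, averaged 45.1, 40.1 and 9.23 in facial controls, and its facial SMA mean at day 10 was 34.05. Rprm, a p53-induced regulator of the cell cycle that is not in the lists, averaged 46.6, 33.9 and 8.95 in facial controls and 32.1 in facial SMA at day 10. The interactions of Abcg2 and Rprm (adjusted p = 0.0426 and 0.0374) held in 2 and 3 of the 9 fits that left out 1 mouse. In Scn3b, Abcg2 and Rprm the facial SMA mean at day 10 was nearer the day 5 than the day 10 control mean, in Crabp2 (33.6) it was not, and the change with age was not tested. Gpx3 was different: facial SMA at day 10 (199.9 ± 63.7) was above facial controls of every age (61.7, 42.3 and 29.1).

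In the list of snRNP and SMN complex genes, none of 31 passed the interaction test in either direction, where 0.309% and 0.0315% of all genes did. Snrpa1, which encodes a protein of the U2 snRNP, rose in facial neurons from 30.6, 55.0, 50.8 and 31.6 RPKM to 71.9, 125, 127 and 127, without overlap (1.43 ± 0.36, adjusted p = 0.0367). In the vagus it stood at 21.2, 26.05, 27.7 and 7.44 in controls and at 27.1, 48.9, 37.7, 86.5 and 46.0 in SMA, with overlap between mouse 253 and mouse 196 only. That difference of 1.26 ± 0.34 had an unadjusted p of 6.17e-04 and did not pass after adjustment (adjusted p = 0.404 with limma). The interaction was 0.17 ± 0.48 (adjusted p = 0.986). The facial call of Snrpa1 was lost without mouse 199, 247, 249, 254 or 258 (up to 0.186).

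Ifitm2, an interferon-induced membrane protein, had a similar pattern. It averaged 23.1 ± 12.3 and 73.3 ± 31.9 in facial neurons and 15.96 ± 8.74 and 47.5 ± 13.1 in vagus neurons. The facial difference of 1.69 passed (adjusted p = 0.0084), the vagus difference of 1.59 did not (adjusted p = 0.196), and the interaction was 0.10 ± 0.49 (adjusted p = 0.9997). The facial call of Ifitm2 was lost without mouse 199, 253 or 258 (up to 0.134).

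The remaining lists held no gene past the interaction test, where 0.309% of all genes were higher and 0.0315% lower. At so small a share, no call in lists of this size says little about their members. This was so for the integrated stress and unfolded protein response (24 tested), axon injury and regeneration (22), neurofilaments and neuronal cytoskeleton (9), CGRP peptides and receptors (10), cholinergic transmission (11), motor neuron identity (14), Hox position (11), fast, slow and gamma motor neurons (12), immediate early genes (12) and MHC class I (10). In facial neurons Tap1, which loads peptides onto MHC class I, was the only member of the MHC list to rise. It is also a p53 target, and its interaction of 3.26 missed the threshold (adjusted p = 0.0507).

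No marker of another cell type passed the interaction test, where 0.309% of all genes were higher and 0.0315% lower, so this says little about the markers. Gfap, the intermediate filament of astrocytes, rose in facial neurons from 3.00, 0.726, 1.64 and 1.14 RPKM to 14.8, 18.8, 11.6 and 22.8 (2.81 ± 0.51, adjusted p = 6.99e-04). Vagus controls already stood at 8.45, 9.58, 19.6 and 15.2, and vagus SMA between 13.8 and 24.5. The interaction of 2.24 ± 0.68 did not pass (adjusted p = 0.198). Of 8 astrocyte markers Gfap alone passed in the facial contrast, and the summed level ran from 1972 to 2253 in facial controls and from 1850.2 to 2479 in facial SMA, most of it from Aldoc and S100b. The sum of 10 microglial markers ran from 5.31 to 11.1 in facial controls and from 6.62 to 49.1 in facial SMA, and from 37.7 to 63.6 and 32.1 to 117 in vagus controls and SMA. All 10 had a facial difference above 0 and none passed. The part of glial RNA in the facial response was not tested.

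The 6 genes with a lower facial response were unlike one another. Nudt8, a mitochondrial hydrolase of the Nudix family, owed its interaction of -4.15 ± 0.94 (adjusted p = 0.0303) to the vagus. Vagus controls stood at 0, 3.39, 0 and 0.205 RPKM and vagus SMA at 5.91, 11.5, 30.0, 20.9 and 47.1, while facial controls (24.3 ± 18.7) and facial SMA (14.2 ± 6.11) overlapped. At days 2 and 5 vagus controls averaged 23.5 and 10.8, so the day 10 controls were the low group. The interaction of Nudt8 was lost without mouse 247, 249, 253 or 258 (up to 0.178), and its vagus call without 247, 253, 254 or 258 (up to 0.0987).

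Kcng4, a modifier subunit of potassium channels, fell in facial neurons from 26.6, 18.1, 24.9 and 20.8 RPKM to 4.96, 6.13, 11.7 and 15.4, with an interaction of -1.35 ± 0.32 (adjusted p = 0.0380). Vagus means were 0.0256 and 0.0926, too low for a fall to be seen. Its interaction was lost without mouse 196, 199, 247, 250, 253 or 254 (up to 0.173). In facial controls Kcng4 averaged 0.0277 at day 2 and was at 0 at day 5. Tmprss15 and Lcn2 also fell in facial neurons, from 1.97 to 0.228 and from 7.45 to 1.26, and were at 0 in all vagus controls. Ccdc82 had facial means of 3.53 and 0.964 and vagus means of 1.75 and 4.93 in controls and SMA, neither difference past the test alone, and its interaction was -2.68 ± 0.57 (adjusted p = 0.0159). Gm25076 is a snoRNA gene whose values lie near its 3-read level. With 1 mouse left out, the interaction held in 6 of 9 fits for Ccdc82 and Gm25076, in 4 for Lcn2 and in 2 for Tmprss15.

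Fewer genes passed at younger ages. At day 2 no gene passed the interaction test with limma, and 1071 had an unadjusted p below 0.05. At day 5 Ddit4l, Rnf151 and Gm11243 passed. At an unadjusted p below 0.05 the facial response was higher in 7 of the 59 genes at day 2 (2.55% of all genes tested) and in 14 at day 5 (3.44%), shares of 11.9% and 23.7% of the 59. These ages rest on other mice.

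Cdkn1a, Fas and Trim72 already rose in facial neurons at day 2, and these and Plk2 did so at day 5. Fas averaged 0.292 ± 0.407 in facial controls and 4.37 ± 1.39 in facial SMA at day 2 (n = 5 and 7), and 0 and 0.0476 in the vagus (n = 3 and 6). Cdkn1a averaged 19.5 and 69.1 in facial neurons at day 2, against 65.7 and 78.2 in vagus neurons. At day 5 Cdkn1a ran from 70.8 to 360.03 RPKM in the 3 vagus SMA mice, where controls ran from 54.4 to 77.3, and from 82.2 to 498 in facial SMA. The vagus estimate at day 5 was 0.97 ± 0.58 and did not pass (adjusted p = 0.936). Cpne2, in contrast, differed little between facial groups at days 2 and 5 (10.8 and 9.84, then 8.65 and 12.2) and was 57.5 in facial SMA at day 10.

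The same genes were followed in the other populations of the series at day 10. Among the 59, 28 of 50 tested rose in lumbar motor neurons (0.708% of all genes there), 21 of 47 in ocular motor neurons (0.334%), 8 of 45 in hypoglossal motor neurons (0.0667%) and 0 of 34 in red nucleus neurons (0.0062%). These fits used other libraries, and all of those at day 10 came from mice of the day 10 facial and vagus groups. The hypoglossal genes were Bglap2, Cdkn1a, Fam212b, Fas, Gtse1, Plk2, Snord13 and Trim72. In 27 of the 59 no other population passed, among them Trp73, Tnfrsf10b, Eda2r, Crabp2, Abcg2 and Dkkl1, but a difference from those populations was not tested. A gene too low to be tested in a population counted there as not passing, so the 27 are not shown to be facial alone. 2010001M06Rik was at 51.6 in hypoglossal controls and 46.3 in hypoglossal SMA, and at 55.9 and 51.6 in the vagus, whereas facial, ocular and lumbar controls were at 0.297, 0.741 and 2.92 and their SMA groups at 28.1, 29.4 and 33.3.

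**Figure D4:**
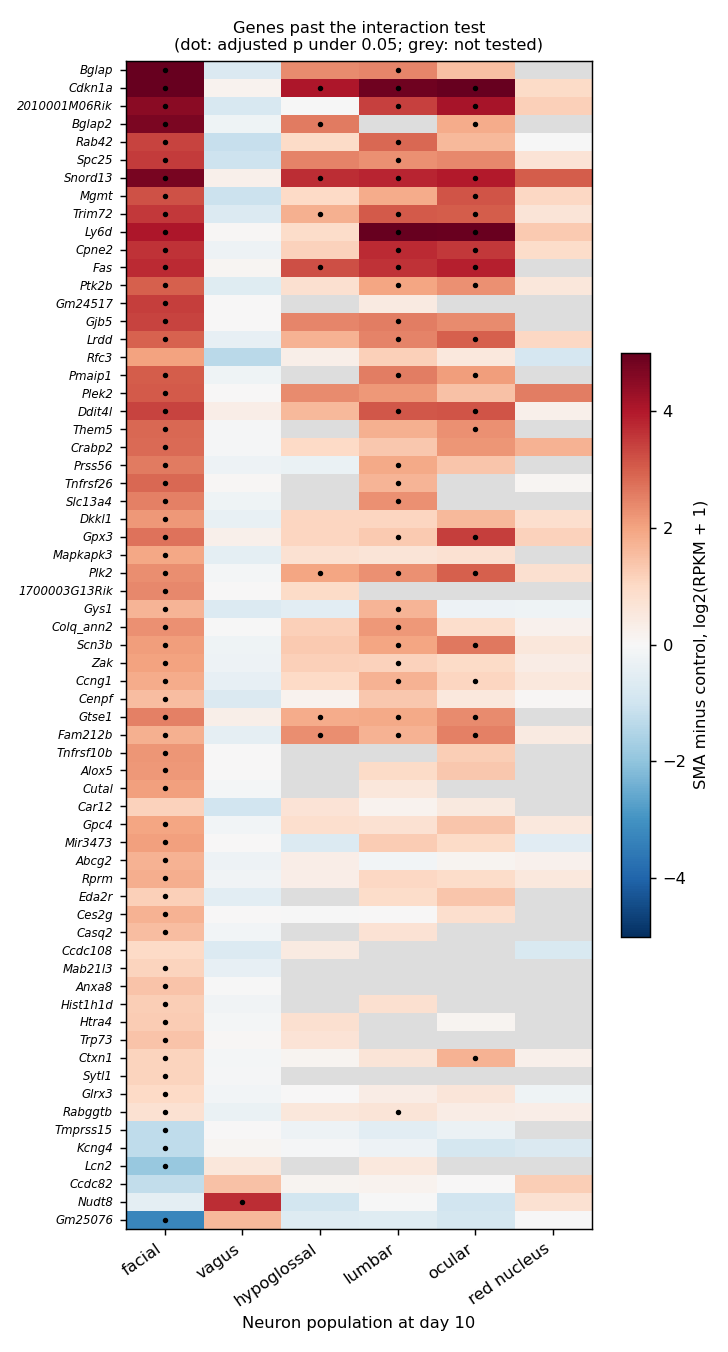
SMA minus control at day 10 in 6 neuron populations, in log2(RPKM + 1), for the 65 genes past the interaction test, ordered by the interaction; red is higher and blue lower in SMA, the scale ends at 5 in either direction, dots mark an adjusted p under 0.05 and grey cells were not tested. Of the 59 genes higher by the interaction, 56 are dotted in the facial column, 28 in the lumbar, 21 in the ocular, 8 in the hypoglossal and 0 in the vagus column.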

How the data were processed

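Gene expression was measured in laser-captured neurons, 1 library per mouse and population. The authors deposited RPKM values (reads scaled to gene length and to the depth of the library, and no longer whole counts) for 39410 gene rows; STAR 2.4.1c and the builds mm10 and hg19 are named per the submitters' processing notes, with no role given, and the counting and its strandedness are not given in the sources used here. Read counts were not used. Depth was estimated from the steps between low values, of which 72.0% to 75.9% came out whole in a library, so levels of 3 reads are approximate and cover counting error only. More depth gives less counting error.

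The values were taken as log2(RPKM + 1). Genes at 1 RPKM or more in at least 3 of the 52 facial and vagus libraries (29 mice, days 2, 5 and 10) were kept, 19071 in all. limma 3.58.1 in R 4.3.3 fitted 12 groups of population, genotype and age together, with the mouse as a random block (consensus correlation 0.0694) and a trend of variance on level. P-values were adjusted by Benjamini-Hochberg over all genes tested, with a threshold of 0.05. Facial and vagus libraries of 1 mouse come from the same animal, per the labels; their deviations from the group means correlated between -0.0441 and 0.103 over the 8 mice of day 10. The other populations were fitted separately. Single genes were also tested by an exact permutation of the 8 mice. In simulated data on 19071 genes, the day 10 interaction test recovered 57% of genes changed by 2 on the log2 scale and 13% of those changed by 1, with 3 false calls. The changed genes were drawn from those with a mean above 2 on that scale, and the noise was normal. These figures therefore do not describe genes with many values at 0.

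The genes named were Smn1, up to 15 genes with the largest positive and up to 10 with the largest negative interaction (10 RPKM or more in a group), list members past a threshold, genes past the vagus threshold, genes that rose in facial neurons and differed between controls of days 2 and 5, and the markers; any other gene was chosen with its values in view. The members and the 25 gene lists were chosen with earlier results of these data known. Gene positions are from GENCODE M21 (GRCm38) and promoters from RefSeq (GRCm38.p6). Alternatives were another pseudocount (0.1), other filters, quantile normalization, median centring, day 10 groups alone, other mouse blocks, robust variance and leaving out each mouse.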

Additional observations from a re-analysis of the deposited data

Results flagged for a closer look

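The response to SMA differed between facial and vagus neurons by the interaction test in 65 genes, and the values of 28 of them are gathered here. On the log2(RPKM + 1) scale, the p53 targets had interactions of 5.53 for Cdkn1a, 4.25 for Mgmt, 4.22 for Trim72, 3.62 for Fas, 3.38 for Lrdd, 3.22 for Pmaip1, 2.42 for Plk2, 2.27 for Ccng1, 2.22 for each of Tnfrsf10b, Gtse1 and Fam212b, and 1.74 for Eda2r. The p53 relative Trp73 had 1.35. Genes outside those lists had 6.09 for Bglap, 5.31 for 2010001M06Rik, 4.94 for Bglap2, 4.54 for Rab42, 4.53 for Spc25, 4.51 for Snord13, 3.97 for Ly6d, 3.87 for Cpne2, 3.48 for Gm24517, 3.38 for Gjb5, 2.56 for Dkkl1, 2.46 for Gpx3 and 2.30 for Scn3b. The facial response was the lower for Nudt8 (-4.15) and Kcng4 (-1.35).

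In 21 of 152 groups of 4 or 5 libraries, 1 mouse stood apart from the others by Dixon's criterion, which chance alone meets in about 1 group of 20. Most were groups with the other mice at or near 0. In facial controls these were mouse 254 for 2010001M06Rik (1.19 RPKM), Bglap2 (0.686) and Rab42 (2.55), mouse 252 for Gtse1 (2.67) and mouse 253 for Snord13 (3.48). In facial SMA mouse 196 was low for Rab42 (2.71). In vagus controls mouse 252 stood apart for Bglap (6.12) and Nudt8 (3.39), mouse 253 for Bglap2 (1.96) and Pmaip1 (1.05), and mouse 254 for Gtse1 (0.0711). In vagus SMA mouse 258 stood apart for Fas (0.311), Pmaip1 (0.350) and Spc25 (0.406), mouse 250 for Smn1 (1.13), Ly6d (0.268) and Trp73 (0.248), mouse 249 for Bglap2 (0.761) and Mgmt (1.32), mouse 199 for Lrdd (4.71) and mouse 196 for Eda2r (0.253).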

How the results depend on the processing

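Of the 65 genes past the day 10 interaction test, 25 passed in every fit that left out 1 mouse and tested them, and 17 in every alternative that tested them, all with the higher facial response. The interaction count was 35 with a pseudocount of 0.1, 41 with a filter of 5 RPKM and 36 with the day 10 groups alone. With no replicate block it was 38, and with the mouse as a fixed block 33. A fixed block cannot give the facial or the vagus contrast, since each mouse has 1 genotype. Leaving out 1 mouse gave 36 to 71 genes. The facial count of 153 was 92 with the 5 RPKM filter, 85 with day 10 alone, and 100 to 150 without 1 mouse. The vagus count of 3 (1 higher, 2 lower) was 1 with day 10 alone and 1 to 7 without 1 mouse, and it was 5 higher and 2 lower without mouse 199 or 249. At day 2 the interaction count was 7 without the filter on low values. The count of 3 at day 5 was 15 without that filter, 0 with the pseudocount of 0.1, the 5 RPKM filter or the fixed mouse block, and 1 with quantile normalization, median centring or no replicate block. With the day 5 groups alone 3 genes passed, 1 higher and 2 lower, 0 of them among the 3. The cause of these shifts was not tested. No named gene that passed changed sign under the alternatives run. Depth limits the lowest genes: a vagus response under the level of 3 reads could not be detected.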
